A study of Mus musculus with 50 samples.

Results

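The comparison described here is KO against WT after 24h of activation in culture, in CD8+ T cells of mouse spleen. It rests on 10 of the 50 libraries of the series, 5 from knockout mice (KO) and 5 from WT mice, with 1 library per mouse. The series followed the same mice at 0h, 2h, 6h, 12h and 24h. The mice were 10 weeks old and the labels give their strain background as C567BL/6J. Spleen cells were selected with anti-CD8a beads and stimulated by antibodies, anti-CD3e bound to the plate and anti-CD28 in solution, each at 2 ug/ml, in both genotypes. Libraries were chosen by the genotype and time in their labels, and the mice of the groups are different animals, so the test was unpaired. KO and WT name the labels, and the labels give no restriction of the knockout to a cell type. The comparison was made once with all 10 mice and once without WT mice 1 and 4, which leaves 8 mice.

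Naive CD8+ T cells that are stimulated through the T cell receptor and CD28 leave rest, grow and enter the cell cycle within a day, and begin to express granzymes, cytokines and new surface receptors. How far a cell goes towards an effector state is set by opposed transcription factors, with Id2, Batf and Prdm1 on the effector side and Id3, Bach2 and Foxp1 on the side of naive and memory cells. Growth also draws on amino acids, and the transcription factor ATF4 raises transporters and enzymes such as asparagine synthetase when they run short. Division depends on waves of expression, first of replication genes driven by E2F factors in S phase, then of mitotic genes in G2.

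WT mice 1 and 4 stood apart from the other 8 libraries. Rag1, which recombines receptor genes in immature thymocytes, was at 76.3 CPM (counts scaled to library size, on which all levels below are given) in WT 1 and 14.3 CPM in WT 4, and at no more than 0.10 CPM in the other 8. Cd4, absent from mature CD8 cells, was at 59.7 and 13.9 CPM in WT mice 1 and 4, and at no more than 1.09 CPM elsewhere. Cd8a itself was at 569 to 700 CPM in KO libraries, at 676 to 720 CPM in WT mice 2, 3 and 5, and at 221 and 462 CPM in WT mice 1 and 4. The first principal component of the 10 libraries held 70.7% of the variance and placed WT 1 at 98.0, WT 4 at 33.2 and the other 8 between -22.2 and -11.5. Library totals ran from 18013206 to 30673318 counts. In bulk RNA fewer cells of a type and less RNA per cell cannot be told apart.

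With all mice, 12 genes (0.104%) were higher and 9 (0.0778%) were lower in KO cells among 11567 tested, 0.182% in all (edgeR's quasi-likelihood test, Benjamini-Hochberg adjusted p under 0.05, a gene then being said to be called). Without WT mice 1 and 4, 308 genes (2.63%) were higher and 305 (2.61%) were lower among 11691 tested, 5.24% in all. At an unadjusted p under 0.05 there were 1734 genes (15%) with all mice and 2401 genes (20.5%) without WT mice 1 and 4. Of 609 genes called without WT mice 1 and 4 and tested in both fits, 544 had the same sign with all mice. The common dispersion, which measures the spread between mice of a group, was 0.0524 with all mice and 0.00322 without WT mice 1 and 4. Most differences were small. The median log2 difference (KO minus WT) of the called genes was 0.37 for those higher and -0.31 for those lower, and 65 higher and 4 lower genes passed a size of 1 on the log2 scale. Of the 613 called genes, 574 had KO libraries that did not overlap WT mice 2, 3 and 5, and 317 had KO libraries that did not overlap any of the 5 WT libraries. The calls used libraries of this same comparison, so the separation is no further support for them. The share of such genes among all tested was not counted. Both counts depended on single libraries. With all mice the count fell to 3 without KO 4, without KO 5, without WT 2 or without WT 4, to 6 without KO 1 or KO 3, to 7 without WT 3 or WT 5, and was 32 without KO 2 and 141 without WT 1. Without WT mice 1 and 4 it was 370 without KO 4 too, 303 without KO 5, 362 without WT 2, 227 without WT 3 and 294 without WT 5. Lilr4b, Snapc1 and Wwp2 were the 3 genes called with all mice that were also called in each of the 10 fits that leave out 1 mouse, and of the 103 genes named below that were called without WT mice 1 and 4, 42 were called in each of the 8 such fits.

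**Figure D1:**
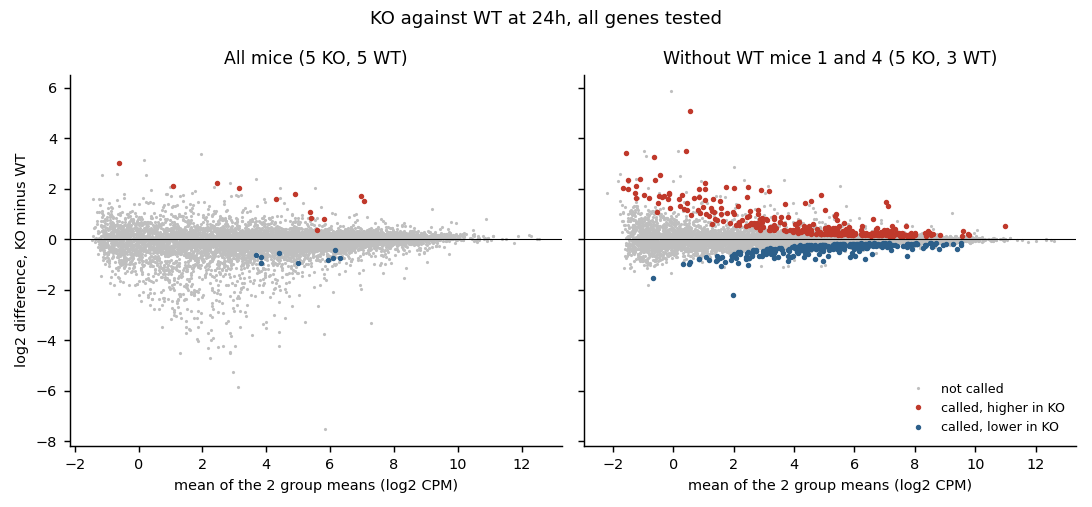
Log2 difference (KO minus WT) against the mean of the group means (log2 CPM) for every gene tested, with all mice on the left and without WT mice 1 and 4 on the right. Red points are called higher in KO and blue points called lower. The right panel has 308 red and 305 blue points, the left 12 and 9.

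The 20 genes called in both fits comprised 11 higher and 9 lower in KO cells. H2-Q7, a nonclassical MHC class I gene (GRCm38 chr17:35439155-35443773), was at 193, 185, 205, 203 and 206 CPM in KO mice 1 to 5, against 35.3, 80.5, 76.4, 69.7 and 84.2 CPM in WT mice 1 to 5. No KO library came near a WT library. The log2 difference was 1.52 ± 0.20 (SE, adjusted p = 0.0192) with all mice and 1.31 ± 0.05 (adjusted p = 9.74e-11) without WT mice 1 and 4. Its neighbour H2-Q6 (chr17:35424850-35430055) was at 180 to 210 CPM in KO libraries, against 22.8 to 70.9 CPM in WT libraries, with log2 differences of 1.73 ± 0.26 (adjusted p = 0.0329) and 1.48 ± 0.06 (adjusted p = 2.18e-09). H2-Q6 and H2-Q7 are near-identical copies, so how the authors' counting shared reads between them is uncertain. Of 18 other MHC class I and peptide loading genes 0 were called higher and 1, Tapbp, was called lower without WT mice 1 and 4, against 2.63% and 2.61% of all genes. In that fit 7 were at an unadjusted p under 0.05, against 20.5% of all genes, and DESeq2 called 3.

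Lilr4b and Lilrb4a, neighbouring genes of immunoglobulin-like receptors, were also higher. Lilr4b (chr10:51480632-51486703) was at 18.7, 10.5, 13.9, 14.4 and 14.1 CPM in KO mice 1 to 5, against 2.72, 3.36, 3.29, 3.48 and 4.75 CPM in WT mice 1 to 5. The lowest KO library was thus above the highest WT library, and the log2 difference was 2.02 ± 0.19 (adjusted p = 0.00221) with all mice and 1.92 ± 0.19 (adjusted p = 0.000732) without WT mice 1 and 4. Lilrb4a (chr10:51490956-51496611) was at 20.2 to 39.1 CPM in KO libraries, against 7.51 to 12.5 CPM in WT libraries, with log2 differences of 1.59 ± 0.19 and 1.44 ± 0.23 (adjusted p = 0.0119 and 0.0183). The pair are close paralogs, and 35.3% of the exon bases of Lilrb4a are shared with Gm49339, an overlapping gene model on the same strand. Ly6c2, a surface protein of memory-type CD8 cells (chr15:75108158-75111970), was at 44.5, 31.3, 62.8, 45.7 and 47.5 CPM in KO mice 1 to 5, against 13.8, 13.9, 9.01, 11.8 and 17.7 CPM in WT mice 1 to 5. The groups did not overlap (log2 difference 1.81 ± 0.21, adjusted p = 0.0119, and 1.78 ± 0.30, adjusted p = 0.0274). F2r, the thrombin receptor PAR1, was at 42.6 to 60.4 CPM in KO libraries, against 24.5 to 33.9 CPM in WT libraries, with log2 differences of 0.84 ± 0.11 and 0.76 ± 0.11 (adjusted p = 0.0192 and 0.00479). Hip1, which works in endocytosis, was at 5.73 to 12.5 CPM in KO libraries, against 1.31 to 2.43 CPM in WT libraries (log2 difference 2.24 ± 0.28 and 2.08 ± 0.33, adjusted p = 0.0150 and 0.0131). Jaml, a junctional adhesion molecule of T cells, was called with all mice only, at 59.5 to 96.5 CPM in KO libraries, against 36.1 to 43.2 CPM in WT libraries (log2 difference 0.82 ± 0.13, adjusted p = 0.0440). Without WT mice 1 and 4 it missed the threshold (0.77 ± 0.17, adjusted p = 0.0597). Tmem163, a zinc transporter, and the immunoglobulin gene Igkv8-19 were called in both fits below 5 CPM.

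The genes lower in both fits were of other kinds. Snapc1, a subunit of the complex that starts transcription of small nuclear RNAs (chr12:73964481-73988966), was at 22.3, 22.5, 20.6, 22.2 and 23.2 CPM in KO mice 1 to 5, against 46.9, 39.2, 43.0, 41.1 and 38.9 CPM in WT mice 1 to 5. Spread within each group was small beside the gap, and the log2 difference was -0.92 ± 0.07 (adjusted p = 0.000633) and -0.87 ± 0.06 (adjusted p = 2.05e-07). Wwp2, a ubiquitin ligase (chr8:107436365-107558595), was at 41.9 to 46.9 CPM in KO libraries, against 71.5 to 90.9 CPM in WT libraries, with log2 differences of -0.83 ± 0.08 and -0.71 ± 0.05 (adjusted p = 0.00221 and 2.01e-07). Tomm7, of the import pore in the outer mitochondrial membrane, was at 54.6 to 64.9 CPM in KO libraries, against 77.2 to 113 CPM in WT libraries, with log2 differences of -0.74 ± 0.10 and -0.78 ± 0.06 (adjusted p = 0.0249 and 2.22e-06). A further 3 genes served metabolism or signalling. Plod2, a lysyl hydroxylase of collagen, fell by 0.95 on the log2 scale with all mice, to 6.99 to 11.9 CPM in KO libraries, against 15.9 to 22.5 CPM in WT libraries. Maoa, a monoamine oxidase, was at 8.70 to 12.0 CPM in KO libraries, against 16.1 to 20.2 CPM in WT libraries. Hpcal1, a calcium sensor, was at 40.3 to 58.9 CPM in KO libraries, against 74.1 to 97.4 CPM in WT libraries. In all 3 the KO libraries lay below all 5 WT libraries.

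**Figure D2:**
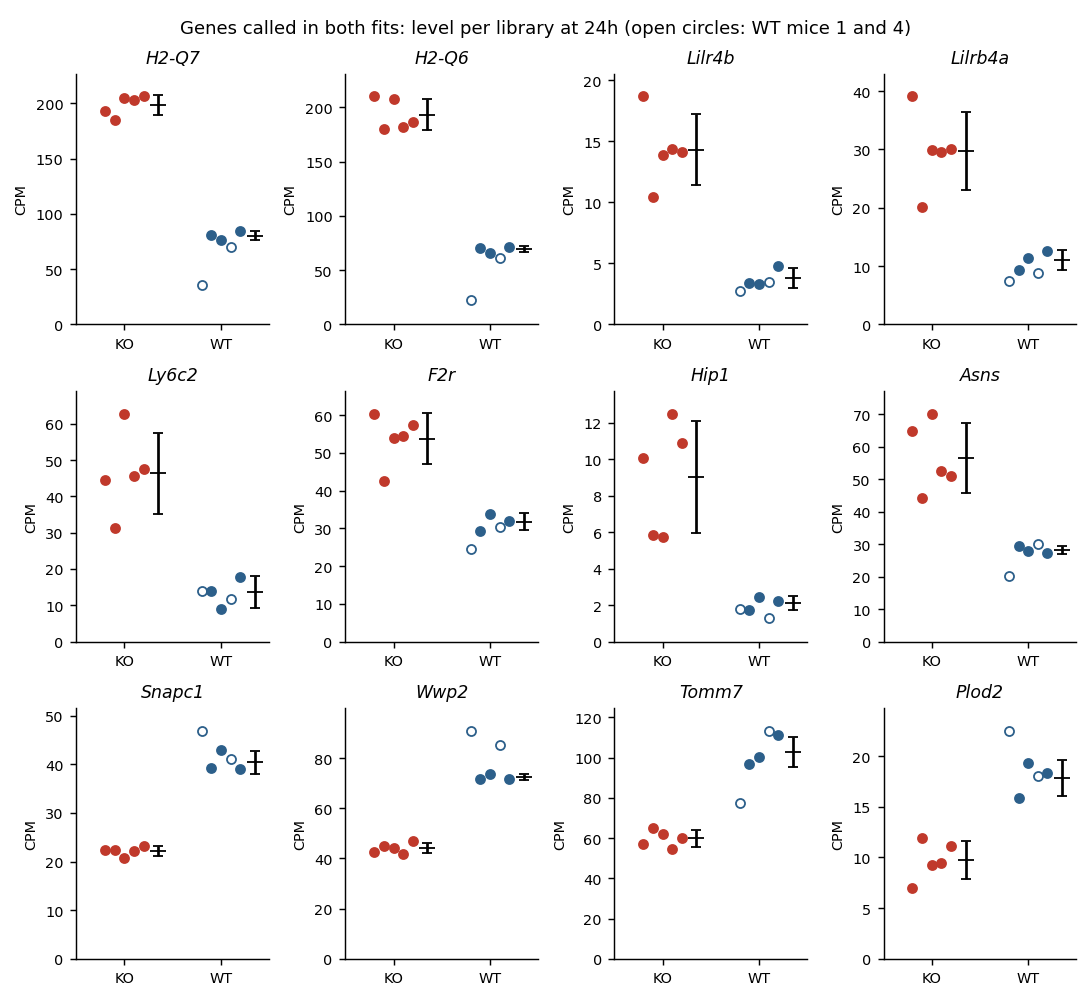
Level per library (CPM, linear axes from 0) of 12 genes called in both fits, with KO libraries in red on the left and WT libraries in blue on the right of each panel. Open circles are WT mice 1 and 4, and bars give mean and SD of the filled circles (n = 5 KO, n = 3 WT). H2-Q7 lies at 185 to 206 CPM in KO and at 35.3 to 84.2 CPM in WT, and no panel has overlapping groups.

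Levels at the other times were set beside those at 24h for 4 of these genes, chosen after their values were seen. These levels were scaled over the 40 libraries of all times without WT mice 1 and 4. H2-Q7 at 0h averaged 849 ± 107 CPM in KO mice (SD, n = 5) and 393 ± 96.5 CPM in WT mice 2, 3 and 5 (SD, n = 3). At 24h the means were 200 ± 9.15 CPM in KO mice and 81.6 ± 4.06 CPM in those WT mice. The groups were separate at 0h, 2h, 6h, 12h and 24h, and both were lowest at 24h. At 0h Asns averaged 25.9 ± 14.6 CPM in KO mice and 3.95 ± 0.79 CPM in WT mice 2, 3 and 5. Lilr4b peaked at 6h in both genotypes, at 319 ± 89.9 CPM in KO mice and 97.1 ± 24.6 CPM in WT mice 2, 3 and 5. Ly6c2 at 0h averaged 355 ± 152 CPM in KO mice and 72.8 ± 23.1 CPM in WT mice 2, 3 and 5. Its groups were separate at 0h, 2h and 24h and overlapped at 6h and 12h. These are libraries of the same mice, and no test over times was made.

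Effector genes were the next group, and their calls rest on the fit without WT mice 1 and 4. Among secreted cytokines 1 of 13 tested was called higher, against 2.63% of all genes, and it was Csf2, the growth factor GM-CSF. Csf2 was at 25.9, 11.1, 18.4, 19.4 and 18.9 CPM in KO mice 1 to 5, against 5.14, 5.56, 7.73, 11.2 and 7.90 CPM in WT mice 1 to 5. The KO libraries lay above WT mice 2, 3 and 5, and KO 2 lay at the level of WT 4 (log2 difference 1.42 ± 0.29, adjusted p = 0.0420). With all mice Csf2 missed the threshold (1.32 ± 0.26, adjusted p = 0.114), and of the 8 fits that left out 1 more mouse 2 called it. Il3, a cytokine of the same gene cluster, was at 38.5, 8.11, 23.2, 18.2 and 19.3 CPM in KO mice 1 to 5, against 2.13, 3.13, 4.14, 5.46 and 5.40 CPM in WT mice 1 to 5. Its groups did not overlap, yet it missed the threshold in both fits (adjusted p = 0.0558 and 0.0736). Of 10 chemokines 0 were called (3 at an unadjusted p under 0.05, against 20.5% of all genes, and 2 by DESeq2). All 10 had a positive log2 difference and their median was 0.44, against 0.0012 for all genes. Ccl1 spread most, with 147 CPM in KO 1 and 30.0 CPM in KO 2, against 12.0 to 22.1 CPM in WT libraries (adjusted p = 0.111). Of 14 cytotoxic genes 2 were called higher. Gzmb, the main granzyme of CD8 cells, was at 2188 to 2536 CPM in KO libraries, against 1474 to 1833 CPM in WT mice 2, 3 and 5, with a log2 difference of 0.52 ± 0.08 (adjusted p = 0.00842). WT 1 had 190 CPM of Gzmb and WT 4 had 1687 CPM, and with all mice the adjusted p was 0.392.

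Several receptors for cytokines of inflammation and growth were higher as well. Of 23 cytokine receptor chains tested, 6 were called higher (Il1rl1, Il18r1, Il7r, Il6ra, Ifngr1 and Il2ra) and 1, Tgfbr1, was called lower, against 2.63% and 2.61% of all genes. Il1rl1, the IL-33 receptor ST2, was at 19.1, 7.58, 8.72, 11.9 and 12.4 CPM in KO mice 1 to 5, against 0.79, 2.4, 3.16, 2.76 and 3.67 CPM in WT mice 1 to 5. The groups were separate, with a log2 difference of 1.97 ± 0.37 (adjusted p = 0.0311) without WT mice 1 and 4. With all mice Il1rl1 missed the threshold (2.22 ± 0.38, adjusted p = 0.0679). Il18r1, of the IL-18 receptor, was at 20.2 to 52.7 CPM in KO libraries, against 11.6 to 12.6 CPM in WT mice 2, 3 and 5 (1.53 ± 0.32, adjusted p = 0.0492), and at 2.27 and 3.96 CPM in WT mice 1 and 4. Il7r, the IL-7 receptor, was at 24.0 to 34.5 CPM in KO libraries and at 18.3 to 22.0 CPM in WT mice 2, 3 and 5 (0.62 ± 0.11, adjusted p = 0.00899), but WT 1 stood above all KO libraries at 49.7 CPM. Il2ra, the high-affinity chain for IL-2, was at 833 to 1034 CPM in KO libraries, against 786 to 821 CPM in WT mice 2, 3 and 5 (0.23 ± 0.06, adjusted p = 0.0357). Of 17 surface genes of memory-type CD8 cells 3 were called higher and 0 lower, namely Ly6c2, the chemokine receptor Ccr2 and Klrk1, which encodes the activating receptor NKG2D. Klrk1 was at 22.7 to 28.2 CPM in KO libraries, against 7.71 to 21.1 CPM in WT libraries. Its log2 difference was 0.38 ± 0.07 without WT mice 1 and 4 (adjusted p = 0.00833). With all mice Klrk1 missed the threshold (0.71 ± 0.24, adjusted p = 0.271).

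**Figure D3:**
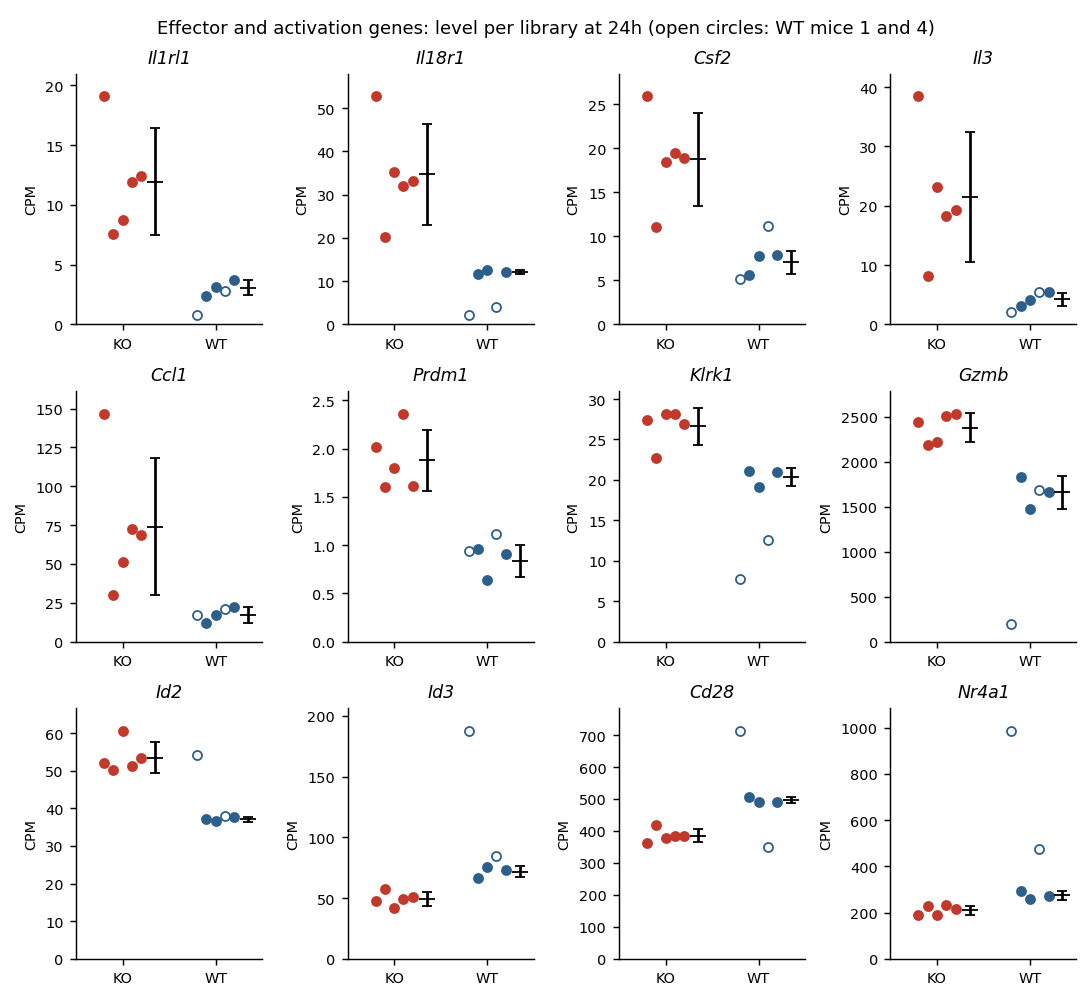
Level per library (CPM, linear axes from 0) of 12 effector and activation genes, with KO libraries in red on the left and WT libraries in blue on the right of each panel. Open circles are WT mice 1 and 4, and bars give mean and SD of the filled circles (n = 5 KO, n = 3 WT). In Il1rl1, Il18r1, Csf2, Il3 and Ccl1 the highest KO library is KO 1 and the lowest is KO 2, at 19.1 and 7.58 CPM for Il1rl1.

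Transcription factors of effector and memory cells were called in both directions, and only without WT mice 1 and 4. The median of their list was 0.08 in that fit. Of 27 tested with all mice, edgeR called 0 and DESeq2 called 5. There 11 were at an unadjusted p under 0.05, against 15% of all genes. Of 27 effector and memory transcription factors tested without WT mice 1 and 4, 5 were called higher (Id2, Batf3, Prdm1, Batf and Hopx) and 2 were called lower (Id3 and Bach2), against 2.63% and 2.61% of all genes. Id2 was at 52.1, 50.1, 60.6, 51.2 and 53.4 CPM in KO mice 1 to 5, against 37.1, 36.5 and 37.8 CPM in WT mice 2, 3 and 5. The log2 difference was 0.53 ± 0.06 (adjusted p = 0.000181), while WT 1 had 54.2 CPM and lay among the KO libraries. Id3, which restrains effector differentiation, was at 47.4, 57.8, 41.7, 49.3 and 51.1 CPM in KO mice 1 to 5, against 188, 66.9, 75.8, 84.4 and 72.8 CPM in WT mice 1 to 5. All KO libraries lay below all WT libraries, with a log2 difference of -0.54 ± 0.09 (adjusted p = 0.00724) without WT mice 1 and 4 and of -0.98 ± 0.27 (adjusted p = 0.239) with all mice. Prdm1, which encodes Blimp-1, stood at a low level, 1.6 to 2.36 CPM in KO libraries, against 0.64 to 0.95 CPM in WT mice 2, 3 and 5 (1.15 ± 0.24, adjusted p = 0.0113). Batf averaged 39.9 ± 0.79 CPM in KO mice (SD, n = 5) and 33.4 ± 2.53 CPM in WT mice 2, 3 and 5 (SD, n = 3), with an adjusted p of 0.0131, while WT 1 lay below all other libraries at 27.5 CPM and WT 4 above them. Batf3 was at 13.5 to 16.1 CPM in KO libraries, against 6.79 to 10.8 CPM in WT mice 2, 3 and 5 (adjusted p = 0.00555), and WT 4 was at 25.6 CPM. Bach2 was at 187 to 213 CPM in KO libraries, against 220 to 255 CPM in WT mice 2, 3 and 5 (-0.22 ± 0.05, adjusted p = 0.0274), and WT mice 1 and 4 were at 210 and 176 CPM. Foxp1, a factor of quiescence, was at 346 to 366 CPM in KO libraries, against 384 to 396 CPM in WT mice 2, 3 and 5 (-0.13 ± 0.03, adjusted p = 0.0343). WT mice 1 and 4 lay below all KO libraries in Foxp1, at 191 and 272 CPM, and with all mice its log2 difference was 0.12. The 22 naive and quiescence genes did not move as a group: 1 was called higher (Il7r) and 1 lower (Foxp1).

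Inhibitory and costimulatory receptors gave a mixed picture. Of 15 inhibitory receptors 4 were called higher and 0 lower, against 2.63% and 2.61% of all genes, and the median of the list was -0.02. Tigit was at 27.9 to 35.3 CPM in KO libraries, against 20.5 to 25.0 CPM in WT mice 2, 3 and 5 (0.43 ± 0.09, adjusted p = 0.0145), with 58.9 and 47.6 CPM in WT mice 1 and 4. Havcr2, which encodes TIM-3, was at 2.41 to 5.92 CPM in KO libraries, against 0.89 to 1.86 CPM in WT mice 2, 3 and 5. Entpd1 and Nt5e, which encode the ectonucleotidases CD39 and CD73 that make adenosine from ATP, were both called higher. Entpd1 was at 0.45 to 1.85 CPM in KO libraries, against 0.17 to 0.56 CPM in WT mice 2, 3 and 5, so its groups overlapped. WT mice 1 and 4 had 1.48 and 1.11 CPM of Entpd1. Nt5e was at 5.57 to 12.6 CPM in KO libraries, against 3.54 to 4.01 CPM in WT mice 2, 3 and 5 (1.12 ± 0.25, adjusted p = 0.0340). WT mice 1 and 4 had 11.5 and 3.53 CPM of Nt5e. Of 20 costimulatory genes 1, Cd80, was called higher and 2, Cd28 and Cd40lg, were called lower, and the median was 0.04. Cd80, a ligand of CD28, was at 5.79 to 8.32 CPM in KO libraries, against 2.32 to 4.40 CPM in WT libraries. Its log2 difference was 0.89 ± 0.16 without WT mice 1 and 4 (adjusted p = 0.00555). With all mice Cd80 missed the threshold (1.11 ± 0.21, adjusted p = 0.114). Cd40lg, the ligand of CD40, was at 3.15 to 5.04 CPM in KO libraries, overlapping the 4.64 to 6.40 CPM of WT mice 2, 3 and 5. Cd28, the receptor engaged by antibody in this culture, was at 361, 420, 378, 383 and 384 CPM in KO mice 1 to 5, against 507, 491 and 491 CPM in WT mice 2, 3 and 5. The log2 difference was -0.36 ± 0.04 (adjusted p = 0.000181), and WT mice 1 and 4 lay on both sides of the KO libraries, at 713 and 351 CPM. Of 25 genes of the T cell receptor complex and its proximal signalling 1 was called in each direction. Zap70, the kinase that relays the receptor signal, was lower (-0.17 ± 0.04, adjusted p = 0.0227), and Themis, a signalling protein of the receptor pathway that also marks thymocytes, was higher (0.27 ± 0.05, adjusted p = 0.00921). Of 30 immediate early and receptor-induced genes 3 were called lower, namely Nr4a1 (-0.38 ± 0.07, adjusted p = 0.0199), Fos and Fosb, and 1, Atf3, was called higher. Nr4a1 was at 188 to 232 CPM in KO libraries, against 258 to 294 CPM in WT mice 2, 3 and 5. WT mice 1 and 4 had 987 and 476 CPM.

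Among the called genes, KO 2 was most often the KO library nearest to the WT side. How often it was so among all genes tested was not counted. Of the 308 genes called higher, KO 2 was the lowest KO library in 165 and KO 1 the highest in 160. Of the 305 genes called lower, KO 2 was the highest KO library in 168. In the remaining genes another KO library was nearest to the WT side. Leaving KO 2 out gave 827 called genes in place of 613.

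Cell cycle genes split by phase. Of 30 genes of G2 and mitosis 11 were called higher and 0 lower without WT mice 1 and 4, against 2.63% and 2.61% of all genes, with a median log2 difference of 0.12 and 27 positive members. Of 40 genes of S phase and replication 7 were called lower and 0 higher, with a median of -0.09 and 36 negative members. With all mice 0 of either list were called (10 mitotic and 0 S phase genes at an unadjusted p under 0.05, against 15% of all genes, and 1 and 0 by DESeq2). The medians were 0.20 and 0.09, so the sign of the S phase list turned with WT mice 1 and 4. Its summed level was 12229 to 12627 CPM in KO libraries and 12985 to 13431 CPM in WT mice 2, 3 and 5, and 7076 and 11760 CPM in WT mice 1 and 4. The groups of the retained mice did not overlap in that sum. For G2 and mitosis the sums did overlap, at 5923 to 6368 CPM in KO libraries and 5625 to 6120 CPM in WT mice 2, 3 and 5.

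Promoter windows show a letter pattern that many genes of each list have in common. The windows are RefSeq sequences of build GRCm38.p6, from 250 bases before to 50 bases after the start of a gene, 5′ to 3′ on the strand of the gene, and capitals mark the motif. TTTGAA is the letters of the cell cycle homology region, bound by the complexes that time mitotic genes, and is shown in 3 of the called mitotic genes. TTTNNCGC is a form of the E2F motif, shown in Lig1, and TGATGNAAN is the amino acid response element bound by ATF4, shown in Asns. In Ube2c and Lig1 the match is on the other strand.
Cdc20: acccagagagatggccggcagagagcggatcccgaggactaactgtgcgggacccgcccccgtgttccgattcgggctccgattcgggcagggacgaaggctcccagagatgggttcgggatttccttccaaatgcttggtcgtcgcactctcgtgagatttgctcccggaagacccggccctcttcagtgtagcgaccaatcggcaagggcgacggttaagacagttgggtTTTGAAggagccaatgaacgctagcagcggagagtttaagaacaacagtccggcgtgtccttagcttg
Ube2c: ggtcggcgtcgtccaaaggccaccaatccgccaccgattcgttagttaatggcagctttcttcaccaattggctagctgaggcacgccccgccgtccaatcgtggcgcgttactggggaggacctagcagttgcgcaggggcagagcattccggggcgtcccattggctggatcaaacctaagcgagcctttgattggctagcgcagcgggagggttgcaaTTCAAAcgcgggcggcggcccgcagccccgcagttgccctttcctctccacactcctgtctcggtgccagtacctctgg
Hmmr: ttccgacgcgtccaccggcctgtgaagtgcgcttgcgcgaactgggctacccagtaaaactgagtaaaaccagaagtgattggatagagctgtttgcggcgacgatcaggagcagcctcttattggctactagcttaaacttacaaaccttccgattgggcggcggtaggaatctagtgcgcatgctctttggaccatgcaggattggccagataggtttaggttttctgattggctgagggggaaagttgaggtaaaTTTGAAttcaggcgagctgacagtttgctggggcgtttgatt
Lig1: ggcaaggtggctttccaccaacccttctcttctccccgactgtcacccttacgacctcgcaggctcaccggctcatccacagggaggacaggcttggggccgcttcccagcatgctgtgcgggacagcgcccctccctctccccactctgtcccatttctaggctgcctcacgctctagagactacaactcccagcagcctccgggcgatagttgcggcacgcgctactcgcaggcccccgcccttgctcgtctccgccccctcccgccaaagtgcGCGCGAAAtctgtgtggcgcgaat
Asns: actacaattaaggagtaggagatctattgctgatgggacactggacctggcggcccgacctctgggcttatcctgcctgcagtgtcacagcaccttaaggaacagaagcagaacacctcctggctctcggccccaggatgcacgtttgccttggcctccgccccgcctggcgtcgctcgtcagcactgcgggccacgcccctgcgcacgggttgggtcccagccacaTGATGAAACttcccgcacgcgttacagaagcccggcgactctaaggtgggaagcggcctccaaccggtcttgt
These windows lie at chr4:118437294-118437593 (minus strand) for Cdc20, chr2:164769679-164769978 (plus) for Ube2c, chr11:40733388-40733687 (minus) for Hmmr, chr7:13278576-13278875 (plus) for Lig1, which has 3 windows of which 1 holds the motif, and chr6:7693160-7693459 (minus) for Asns. Both strands were searched for each motif separately, so matches may overlap other motifs. TTTGAA was found in 20 of the 26 mitotic genes with a window and in 5 of 33 S phase genes, against 20.2% of 27025 genes in all and 14.1% of the 9218 with a window that were tested at 24h. TTTNNCGC was found in 15 of the 33 S phase genes and 2 of the 26 mitotic genes, against 5.93% of all and 10.1% of those tested. Among called members with a window TTTGAA was in 9 of 10 mitotic genes and TTTNNCGC in 4 of 5 S phase genes. TGATGNAAN was in 2 of 5 such genes of the ATF4 list. A match is a description of letters and not evidence of binding.

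Cdc20, which activates the ligase that ends mitosis, was at 160, 144, 151, 154 and 153 CPM in KO mice 1 to 5, against 117, 121 and 113 CPM in WT mice 2, 3 and 5. The log2 difference was 0.38 ± 0.04 (adjusted p = 0.000143), and WT mice 1 and 4 were at 138 and 173 CPM. Ube2c, the ubiquitin-conjugating enzyme of the same ligase, was at 157 to 174 CPM in KO libraries, against 126 to 132 CPM in WT mice 2, 3 and 5 (0.34 ± 0.04, adjusted p = 0.000449). WT mice 1 and 4 had 128 and 170 CPM of Ube2c. Hmmr, a spindle protein, was at 109 to 126 CPM in KO libraries, against 63.4 to 99.7 CPM in WT libraries. Its log2 difference was 0.33 ± 0.05 without WT mice 1 and 4 (adjusted p = 0.00340). With all mice Hmmr missed the threshold (0.43 ± 0.11, adjusted p = 0.216). The other called members were Ccnb1 and Ccnb2, the B-type cyclins, the kinases Plk1 and Aurka, and Cenpa, Kif23, Tpx2 and Prc1 of the centromere and spindle, with log2 differences of 0.13 to 0.33. On the side of replication, Pole, the catalytic subunit of the leading-strand polymerase, was at 284, 292, 304, 298 and 291 CPM in KO mice 1 to 5, against 342, 355 and 351 CPM in WT mice 2, 3 and 5. The log2 difference was -0.25 ± 0.03 (adjusted p = 0.000859), and WT mice 1 and 4 were below all KO libraries, at 154 and 262 CPM. Lig1, the ligase that joins Okazaki fragments, was at 430 to 461 CPM in KO libraries, against 516 to 529 CPM in WT mice 2, 3 and 5 (-0.22 ± 0.03, adjusted p = 0.00175). WT mice 1 and 4 were below all KO libraries in Lig1 too, at 196 and 389 CPM. Ung, which removes uracil from DNA, the helicase subunits Mcm4 and Mcm7, Uhrf1, which keeps DNA methylation through replication, and Rfc3, a clamp loader subunit, made up the 7. Of 23 cyclins, kinases and inhibitors of G1 5 were called higher and 1 lower without WT mice 1 and 4, against 2.63% and 2.61% of all genes. With all mice 0 of 23 were called. Cdkn2a, an inhibitor of G1 kinases, was at 3.43, 1.03, 0.94, 3.66 and 3.32 CPM in KO mice 1 to 5, against 0.16, 0.26 and 0.22 CPM in WT mice 2, 3 and 5 (adjusted p = 0.0244), and at 2.47 and 1.84 CPM in WT mice 1 and 4. E2f1, the factor of the G1 to S step, was the gene called lower (-0.18 ± 0.05, adjusted p = 0.0361).

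Some genes of the ATF4 response were higher. Of 36 tested without WT mice 1 and 4, 6 were called higher and 0 lower, against 2.63% and 2.61% of all genes, 31 had a positive difference and the median was 0.13. With all mice 1 of 35 was called and the median was 0.24. Asns (chr6:7675169-7693254) was that gene, called in both fits. It was at 64.7, 44.1, 70.1, 52.4 and 50.9 CPM in KO mice 1 to 5, against 20.1, 29.4, 28.0, 30.1 and 27.2 CPM in WT mice 1 to 5. No library overlapped, and the log2 difference was 1.07 ± 0.15 (adjusted p = 0.0249) with all mice and 1.00 ± 0.16 (adjusted p = 0.0199) without WT mice 1 and 4. Atf4 itself was at 464 to 508 CPM in KO libraries, against 232 to 446 CPM in WT libraries (0.17 ± 0.04, adjusted p = 0.0190 without WT mice 1 and 4). Atf4 missed the threshold with all mice (0.31 ± 0.15, adjusted p = 0.349). Herpud1, of the degradation of misfolded proteins, was at 79.2 to 87.3 CPM in KO libraries, against 59.7 to 74.6 CPM in WT libraries. Its log2 difference was 0.20 ± 0.05 without WT mice 1 and 4 (adjusted p = 0.0251). With all mice Herpud1 missed the threshold (0.30 ± 0.07, adjusted p = 0.200). Slc3a2, the heavy chain of several amino acid transporters, Atf5, a related transcription factor, and Aldh1l2, a mitochondrial folate enzyme, were the others. Slc7a3, a transporter of cationic amino acids, was at 7.67 to 12.5 CPM in KO libraries, against 1.04 to 6.03 CPM in WT libraries. Its log2 difference was 1.00 ± 0.20 without WT mice 1 and 4 (adjusted p = 0.0190). With all mice Slc7a3 missed the threshold (1.42 ± 0.38, adjusted p = 0.233). The motif TGATGNAAN was found in 12 of 31 genes of the list with a window, Asns and Herpud1 among them, against 4.50% of all genes and 2.71% of those tested. Genes of arginine, ornithine and polyamine metabolism had 0 of 28 called in either fit (9 at an unadjusted p under 0.05 and 3 by DESeq2 without WT mice 1 and 4, where 20.5% of all genes were at such a p), with Odc1, Got1 and Srm nearest to the threshold (adjusted p = 0.0584, 0.0621 and 0.0705 without WT mice 1 and 4). Of 20 aminoacyl-tRNA synthetases 0 were called in either fit, with 3 at an unadjusted p under 0.05 and 1 by DESeq2 without WT mice 1 and 4.

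**Figure D4:**
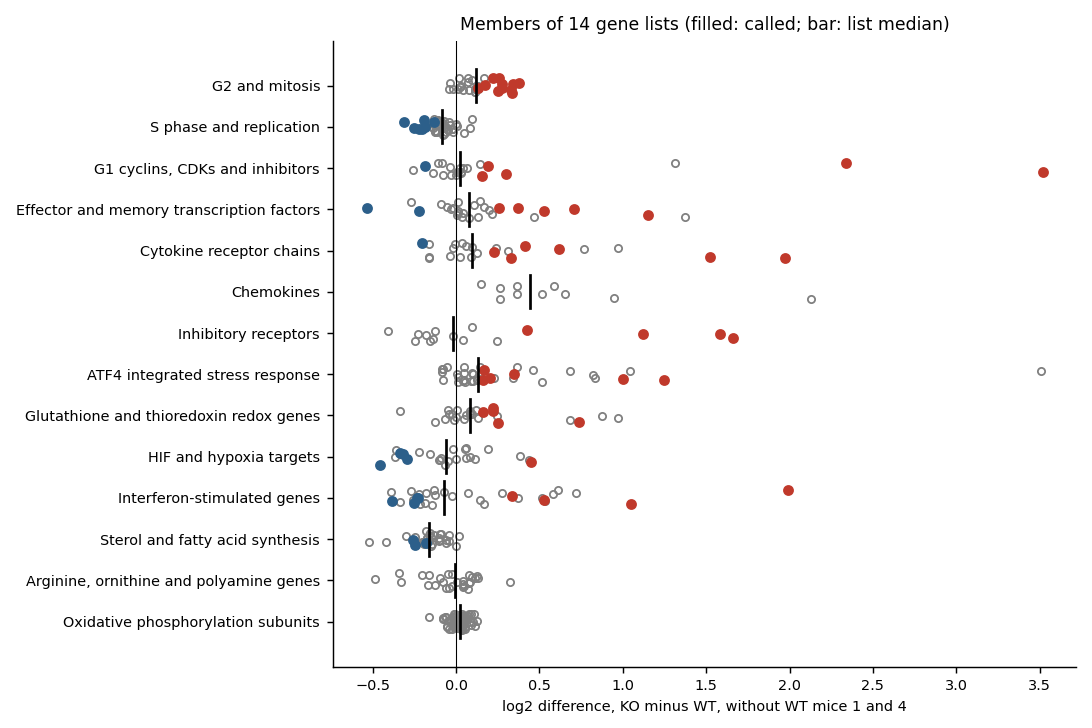
Log2 difference (KO minus WT, without WT mice 1 and 4) of each tested member of 14 gene lists. Filled red points are called higher and filled blue points called lower, open points were not called, and the black bar is the median of the list. Mitotic genes lie mostly right of 0 (median 0.12) and S phase and sterol genes mostly left (medians -0.09 and -0.16).

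Redox genes, hypoxia genes, sterol genes and interferon genes each had called members without WT mice 1 and 4 and 0 with all mice. With all mice 6 of 26, 4 of 23, 3 of 33 and 14 of 31 members were at an unadjusted p under 0.05, against 15% of all genes. DESeq2 called 2, 3, 0 and 2 of them with all mice. Of 26 glutathione and thioredoxin genes 5 were called higher and 0 lower, against 2.63% and 2.61% of all genes. Txnrd1, thioredoxin reductase, was at 381 to 418 CPM in KO libraries, against 312 to 379 CPM in WT libraries. The log2 difference was 0.25 ± 0.04 without WT mice 1 and 4 (adjusted p = 0.00367). With all mice Txnrd1 missed the threshold (0.20 ± 0.06, adjusted p = 0.256). Its substrate Txn1, the oxidant-sensing factor Nfe2l2, and Hmox1 and Sod1 of the oxidant defence were the others, and TGACNNNGC, the antioxidant response element, was in 8 of 23 windows of the list, against 14.0% of all genes and 17.0% of those tested. Of 24 hypoxia genes 4 were called lower and 1, Egln3, higher. Hif1a, the oxygen-regulated factor (chr12:73901375-73947530), was at 175, 192, 189, 193 and 193 CPM in KO mice 1 to 5, against 347, 243, 240, 274 and 222 CPM in WT mice 1 to 5. All KO libraries lay below all WT libraries (-0.32 ± 0.04, adjusted p = 0.000732 without WT mice 1 and 4, and -0.49 ± 0.11, adjusted p = 0.172 with all mice). Ndrg1 and Ak4 were lower as well, at 20.1 to 26.2 and 7.24 to 9.98 CPM in KO libraries, against 28.2 to 30.7 and 11.1 to 13.2 CPM in WT mice 2, 3 and 5. Sterol and fatty acid synthesis had 3 of 33 genes called lower (Sc5d, Insig1 and Cyp51) and 0 higher, 32 negative members and a median of -0.16. Interferon-stimulated genes were divided, with 4 of 31 higher, among them the GTPase gene Iigp1, and 4 lower. Irf1, a transcription factor of the interferon response, and the GTPase gene Gbp2 were among the lower ones. Glycolysis had 2 of 23 higher (Eno1 and Pfkp) and 3 lower (Pfkm, Ldhb and the lactate transporter Slc16a3). Of 71 subunits of oxidative phosphorylation, 47 ribosomal proteins and 30 ribosome biogenesis factors 0 were called in either fit. In the fit without WT mice 1 and 4, 7, 2 and 2 were at an unadjusted p under 0.05, against 20.5% of all genes. DESeq2 called 1, 0 and 2 there.

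Called genes were not spread evenly over chromosomes. Without WT mice 1 and 4 chromosome 12 had 21 genes higher and 27 lower of 418 tested, 11.5%, against 5.01% on the other chromosomes and 7.83% on chromosome 15, the next. With all mice it held 6 of the 21 called genes (Snapc1, Hpcal1, Ap4s1, Trappc12, Dtd2 and Heatr5a), 1.47% of 409 tested, against 0.135% elsewhere. In each of 3 stretches, chosen after their values were seen, called genes of both directions lay together. Between Scfd1 and Arhgap5 (chr12:51377510-52571975) 3 of 8 tested genes were higher and 2 were lower. Heatr5a was at 48.7 to 57.7 CPM in KO libraries, against 41.2 to 45.6 CPM in WT libraries (0.35 ± 0.06, adjusted p = 0.00367), and Dtd2, which clears mischarged tRNAs, was at 9.69 to 10.5 CPM in KO libraries, against 14.0 to 18.7 CPM in WT libraries (-0.55 ± 0.08, adjusted p = 0.000874). Ap4s1, of an adaptor complex for vesicles, was at 16.2 to 18.6 CPM in KO libraries, against 21.2 to 28.0 CPM in WT libraries. Between Trmt5 and Snapc1 (chr12:73280011-73988966), where Hif1a lies beside Snapc1, 1 of 5 tested genes was higher and 3 were lower. Trappc12, of vesicle transport, was at 51.9 to 64.5 CPM in KO libraries, against 79.1 to 85.9 CPM in WT libraries, and its neighbour Adi1, of methionine salvage, was at 44.1 to 57.4 CPM in KO libraries, against 34.0 to 37.5 CPM in WT libraries. Kcnf1, a potassium channel subunit on this chromosome, was at 4.03, 2.01, 3.85, 1.97 and 2.28 CPM in KO mice 1 to 5, against 0.066, 0.085 and 0.086 CPM in WT mice 2, 3 and 5 (adjusted p = 1.56e-05). WT mice 1 and 4 stood above all KO libraries in Kcnf1, at 56.7 and 13.8 CPM.

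**Figure D5:**
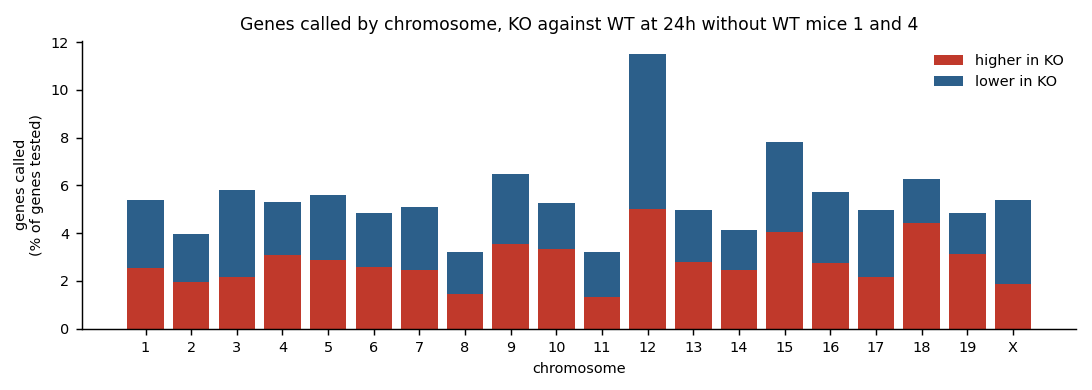
Genes called without WT mice 1 and 4 as a percentage of the genes tested on each chromosome, with genes higher in KO in red and genes lower in KO in blue. Chromosome 12 reaches 11.5% and no other chromosome passes 7.83%.

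Markers of other cell types were set beside these results, and those called here (Klrk1, Batf3, Cd40lg and Themis) are genes already given above. Over all genes 2.63% were called higher and 2.61% lower without WT mice 1 and 4. Between KO libraries and WT mice 2, 3 and 5 the sums overlapped for NK, dendritic cell, macrophage, monocyte and neutrophil, CD4 T cell and B cell markers. NK markers, of which Klrk1 is one, summed to 184 to 287 CPM in KO libraries, 134 to 217 CPM in WT mice 2, 3 and 5, and 48.6 and 84.4 CPM in WT mice 1 and 4, and 1 of 4 tested (Klrk1) was called. Ncr1, which defines NK cells, was at no more than 0.34 CPM in any library. Dendritic cell markers summed to 97.4 to 113 CPM in KO libraries and 72.7 to 100.5 CPM in WT mice 2, 3 and 5, and 1 of 6 tested (Batf3) was called. Macrophage, monocyte and neutrophil markers summed to 6.47 to 15.6 CPM in KO libraries and 7.60 to 10.6 CPM in WT mice 2, 3 and 5. In WT mice 1 and 4 they summed to 132 and 35.5 CPM. CD4 T cell markers summed to 53.3 to 96.1 CPM in KO libraries, 89.5 to 118 CPM in WT mice 2, 3 and 5, and 209 and 119 CPM in WT mice 1 and 4, and 1 of 5 tested (Cd40lg) was called lower. Markers of stroma and endothelium summed to 17.2 to 24.7 CPM in KO libraries, 25.2 to 30.0 CPM in WT mice 2, 3 and 5, and 161 and 55.6 CPM in WT mice 1 and 4, with Col3a1 and Cdh5 at 0 in all 10 libraries. Immature thymocyte markers summed to 295 to 323 CPM in KO libraries and 290.5 to 294 CPM in WT mice 2, 3 and 5, with 1 of 8 tested (Themis) called higher. Some sums rested mostly on few genes. In KO 1 Tcf12 and Themis had 168 and 139 CPM of the thymocyte sum of 322 CPM, and Rag1 was at 0. Eomes had 174.5 CPM of the NK sum of 225 CPM in KO 1. Pecam1, of the stroma and endothelium list, was alone at 17.0 to 24.5 CPM in KO libraries. B cell markers summed to 14.1 to 25.2 CPM in KO libraries and 9.63 to 25.6 CPM in WT mice 2, 3 and 5. The part of these cells in the results above was not tested.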

How the data were processed

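Libraries were stranded poly(A) mRNA read as 50 nt single ends, per the labels' protocols. Mouse build GRCm38 and the tools featureCounts 1.4.6, STAR 2.4 and CASAVA 1.8.2 come from the submitters' processing notes. The values the authors deposited are whole-number counts of reads per gene, not normalized. The annotation release, the strand setting and the handling of reads with several matches are not given in the sources used here, so near-identical paralogs and overlapping genes on opposite strands are uncertain. Of 21647 genes 21583 had a symbol in GENCODE M21, and 0 columns were left out.

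Genes were kept by filterByExpr (minimum count 10, minimum total 15), libraries were scaled by TMM, and KO was compared with WT at 24h by edgeR's robust quasi-likelihood test (edgeR 4.0.16, R 4.3.3), unpaired, with Benjamini-Hochberg adjustment over all genes tested and a threshold of 0.05. With all 10 mice 8 residual degrees of freedom remained, and 6 without WT mice 1 and 4. The labels number separate mice, so p values measure the spread between mice. SE is the log2 difference divided by the root of F. Levels in CPM use TMM-scaled library sizes of the 10 libraries. Those compared over times use the 40 libraries without WT mice 1 and 4. Alternatives were RLE factors, library totals, other filters, DESeq2 1.42.0, limma-voom (limma 3.58.1) with and without quality weights, a replicate block, a model of all times and leaving out each mouse. The code was tested on simulated data.

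The members, WT mice 1 and 4 and the gene lists were chosen with earlier results of these data known. Genes were named where their group mean reached 5 CPM by rule: the 15 largest called differences per direction in each fit, up to 3 members of each list by smallest p, and genes called in both fits. The text gives a subset, and names some further list members and neighbours after their values were seen. The mast cell list was added later. Some results are not reported here.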

Additional observations from a re-analysis of the deposited data

Results flagged for a closer look

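In 36 of 222 groups of 5 libraries (the levels of the genes named, KO and WT apart), 1 library lay far from the other 4 by Dixon's criterion, which chance gives in about 1 of 20 groups. WT 1 was that library in 23. It was low in H2-Q6 (22.8 CPM), Gzmb (190 CPM), Il2ra (416 CPM), Mcm7 (310 CPM), Atf4 (232 CPM), Eno1 (201 CPM), Odc1 (153 CPM), Srm (231 CPM), Got1 (103 CPM), Txn1 (233 CPM), Adi1 (34.0 CPM), Tpx2 (165 CPM) and Rfc3 (68.5 CPM). It was high in Id2 (54.2 CPM), Id3 (188 CPM), Il7r (49.7 CPM), Nt5e (11.5 CPM), Fos (25.7 CPM), Fosb (15.2 CPM), Pfkm (34.3 CPM), Arhgap5 (32.2 CPM), Sesn2 (34.3 CPM) and Kcnf1 (56.7 CPM). WT 4 was apart in Dtd2 (18.7 CPM), Ube2c (170 CPM) and Ndrg1 (17.5 CPM), WT 2 in Heatr5a (45.6 CPM) and WT 5 in Trappc12 (85.9 CPM).

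Among KO libraries, KO 1 was low in Hif1a (175 CPM) and Egln3 (38.0 CPM), KO 2 was low in Klrk1 (22.7 CPM) and Prc1 (98.9 CPM) and high in Cd40lg (5.04 CPM), KO 3 was high in Aldh1l2 (2.13 CPM) and Adi1 (57.4 CPM), and KO 5 was low in Pfkm (16.4 CPM).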

How the results depend on the processing

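With all mice, the 21 called genes became 406 by DESeq2, 509 by limma-voom with sample quality weights, 6 in 1 model of all 50 libraries, and 3 to 141 when each mouse was left out in turn. With mouse number as a replicate block edgeR called 0 genes, with 1013 at an unadjusted p under 0.05. Without WT mice 1 and 4, the 613 became 330 with the replicate block, 6 in 1 model of the 40 libraries of the other mice, and 227 to 827 when each mouse was left out in turn. Mouse numbers do not pair KO with WT mice, and deviations of libraries of the same number correlated between -0.103 and 0.0577. RLE factors, library totals, other filters and limma-voom without weights kept both counts within 1.5 times, and so did DESeq2 (912) without WT mice 1 and 4. With all mice, quality weights gave the opposite sign for Ifngr1 (0.31), Pole (-0.22) and Kcnf1 (4.35); the cause was not tested. Over the other values of named genes, with all mice 1790 stayed on their side of the threshold, 182 lost a call and 114 gained one. Of the 1790, 58 values of 20 genes were not called and had the opposite sign. In the fit without WT mice 1 and 4, 1402 stayed, 447 lost a call and 21 gained one, with the sign kept in all. Foxp1, Tigit, Ifngr1, Pole, Lig1, Nfe2l2, Ccnb2, Mcm4, Kcnf1 and Uhrf1, called without WT mice 1 and 4, had the opposite sign with all mice. Of the genes named, Ly6c2, Il18r1, Csf2, Nt5e, Foxp1, Cd40lg, Hopx, Il2ra, Il6ra, Tgfbr1, Entpd1, Fos, Fosb, E2f1, Mcm4, Cenpa, Tpx2, Slc3a2, Atf5, Aldh1l2, Sod1, Irf1, Gbp2 and Iigp1 were each called in no more than 2 of the 8 fits that left out 1 mouse beside WT mice 1 and 4.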

Other observations

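Targets of p53 had mostly positive differences that missed the threshold. Of 28 tested without WT mice 1 and 4, edgeR called 0, 18 were at an unadjusted p under 0.05 (20.5% of all genes were), DESeq2 called 10 and limma-voom 0, and 21 had a positive log2 difference with a median of 0.23, against 0.0012 for all genes. Sesn2, a stress-induced regulator of growth signalling, was at 26.7 to 47.0 CPM in KO libraries, against 18.3 to 20.1 CPM in WT mice 2, 3 and 5 (0.82 ± 0.20, adjusted p = 0.0723), and at 34.3 and 20.5 CPM in WT mice 1 and 4.

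Genes of basophils and mast cells, a list drawn up after the values were seen, were present at low levels. They summed to 9.95 to 13.3 CPM in KO libraries and 5.92 to 6.98 CPM in WT mice 2, 3 and 5. WT mice 1 and 4 had sums of 33.6 and 15.7 CPM. Without WT mice 1 and 4, 4 of 8 tested were called higher (Mcpt8, Ms4a2, Gata2 and Kit), against 2.63% of all genes. Since the list was drawn up with these values known, this count is a description and not a test. Mcpt8, a basophil protease, was at 1.23 to 1.84 CPM in KO libraries, against 0.17 to 0.76 CPM in WT mice 2, 3 and 5. Il1rl1 and Csf2 are also expressed by such cells, and the part of these cells in their difference was not tested.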
